A study of Mus musculus with 6 samples.

Results

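The genes described here encode the SCF ubiquitin ligases with Skp2 at their centre: the core subunits Skp1, Cul1 and Rbx1, the F-box proteins Skp2, Fbxw7, Fbxo5, Btrc, Fbxw11 and Ccnf, and Cks1b, the cofactor of Skp2. Members were chosen by name and function, with earlier results of these data known, so that their counts support nothing by themselves. Every probe set whose platform annotation gives a member as its only gene symbol was taken. That gave 27 probe sets for the 10 genes, out of 34945 probe sets with a single symbol and 45037 in all. Another 5 probe sets name Rbx1 together with its pseudogene and were left out.

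Expression was measured on Affymetrix mouse arrays in neurospheres, floating colonies of neural stem and progenitor cells, cultured over 7 days from subventricular zone cells of 84-day-old female mice. There were 3 arrays from Ts1Cje mice and 3 from disomic C57BL/6 littermates, without a treatment in either genotype. Ts1Cje mice, here bred onto C57BL/6, model Down syndrome and carry an additional copy of distal chromosome 16. The extra segment sits on chromosome 12 by translocation, every cell of the animal carries it from conception, and the neurospheres are a culture expanded in growth factors, not the tissue itself.

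An SCF complex joins ubiquitin to proteins that are then degraded by the proteasome. Cul1 is the scaffold, Rbx1 the RING subunit that recruits the ubiquitin-conjugating enzyme, and Skp1 the adaptor that holds 1 of many interchangeable F-box proteins, each of which selects its own substrates. Skp2, with Cks1b, selects the phosphorylated cyclin-dependent kinase inhibitor p27 (gene Cdkn1b), and its removal lets cells pass into S phase. Cyclin F (Ccnf) selects proteins of DNA replication and of centrosome duplication, and Fbxo5, also called Emi1, holds the anaphase-promoting complex in check until mitosis. Fbxw7 selects cyclin E, Myc and Notch, and Btrc and Fbxw11, the β-TrCP proteins, select β-catenin, IκB and Wee1. None of the 10 genes is on chromosome 16 in the GRCm38.p6 annotation, where they are spread over chromosomes 3, 6, 10, 11, 15, 17 and 19.

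Genes that are transcribed late in the cell cycle often carry in their promoters the CHR element, bound by the MuvB complexes, and CCAAT boxes, bound by NF-Y. Genes of the G1/S transition often carry E2F sites. The RefSeq start windows of the members on GRCm38.p6, 250 bases before to 50 bases after each annotated start, were therefore searched on both strands for the CHR (TTTGAA or TTCGAA), the CCAAT box (CCAAT) and the E2F site (TTTCCCGC, TTTGGCGC, TTTCGCGC or TTTGCCGC). There were 14 windows for 9 members, and Btrc had none. The 250 bases before the start are shown for Cks1b, Fbxo5, Ccnf and Skp2, chosen because at least 1 window of each held both the CHR and the CCAAT box, and for Skp1 as a core subunit. The display was thus chosen by motif and not by signal, and Cul1, whose signal was also lower in Ts1Cje neurospheres, had no motif in any window. Capitals mark CHR and CCAAT copies on either strand, which do not overlap each other. The sequences are chr3:89418292-89418541 for Cks1b, chr10:5805466-5805715 for Fbxo5, chr17:24251410-24251659 for Ccnf, chr15:9155426-9155675 for the upstream start of Skp2 and chr15:9140455-9140704 for its downstream start, all on the minus strand, and chr11:52231745-52231994 on the plus strand for Skp1.
Cks1b: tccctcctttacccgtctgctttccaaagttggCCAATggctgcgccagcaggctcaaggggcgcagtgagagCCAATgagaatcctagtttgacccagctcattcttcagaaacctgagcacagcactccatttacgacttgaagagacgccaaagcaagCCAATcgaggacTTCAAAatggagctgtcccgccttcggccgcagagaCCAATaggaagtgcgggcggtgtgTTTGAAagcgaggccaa
Fbxo5: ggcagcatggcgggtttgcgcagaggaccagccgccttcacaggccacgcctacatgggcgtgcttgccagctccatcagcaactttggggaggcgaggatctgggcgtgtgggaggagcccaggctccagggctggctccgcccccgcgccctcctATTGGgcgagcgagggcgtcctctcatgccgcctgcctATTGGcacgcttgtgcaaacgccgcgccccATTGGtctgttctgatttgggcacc
Ccnf: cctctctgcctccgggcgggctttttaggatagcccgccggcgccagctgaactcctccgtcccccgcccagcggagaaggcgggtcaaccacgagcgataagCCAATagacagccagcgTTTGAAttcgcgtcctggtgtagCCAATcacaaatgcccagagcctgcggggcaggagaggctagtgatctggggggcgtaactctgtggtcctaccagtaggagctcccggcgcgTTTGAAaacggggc
Skp2, upstream start: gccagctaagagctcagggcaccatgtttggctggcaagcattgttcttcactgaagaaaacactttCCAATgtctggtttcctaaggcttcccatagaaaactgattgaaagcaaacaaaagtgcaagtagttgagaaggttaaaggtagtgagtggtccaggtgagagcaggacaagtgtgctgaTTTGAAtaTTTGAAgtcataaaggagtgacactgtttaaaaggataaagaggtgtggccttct
Skp2, downstream start: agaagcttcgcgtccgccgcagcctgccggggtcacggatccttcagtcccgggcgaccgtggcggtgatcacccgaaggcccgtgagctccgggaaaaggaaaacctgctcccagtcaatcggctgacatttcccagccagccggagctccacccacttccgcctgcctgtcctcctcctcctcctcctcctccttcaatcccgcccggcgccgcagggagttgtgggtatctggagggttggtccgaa
Skp1: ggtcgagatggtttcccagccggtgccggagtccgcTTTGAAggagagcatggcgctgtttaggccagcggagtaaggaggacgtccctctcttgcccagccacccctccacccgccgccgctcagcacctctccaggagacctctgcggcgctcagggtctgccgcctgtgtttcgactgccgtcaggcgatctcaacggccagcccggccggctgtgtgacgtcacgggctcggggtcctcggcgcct

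Copies of the CHR and of the CCAAT box stood together in the windows of Cks1b, Fbxo5, Ccnf and the upstream start of Skp2, that is in 4 of the 14 member windows, against 7.52% of all 32851 windows. Cks1b had 4 CCAAT boxes and Fbxo5 3, and 3.37% of all windows held 3 or more. The Fbxo5 copy of the CHR begins at base 4 of the transcript and so lies beyond the stretch shown. The other members had fewer: Skp1 held a CHR and no CCAAT box, Rbx1 a CCAAT box and an E2F site, and the downstream start of Skp2, the 3 windows of Cul1, the 3 of Fbxw7 and the window of Fbxw11 none of the motifs. Over all windows the CHR was in 19.2%, the CCAAT box in 37.4% and the E2F site in 2.26%. These matches describe letters in the windows only.

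Across the SCF genes, mean signals in Ts1Cje neurospheres were lower for Skp2, Cks1b, Cul1, Fbxo5 and Ccnf, with M from -0.69 to -0.35 on their brightest probe sets. They were close to the disomic level for Skp1, Fbxw7 and Fbxw11, and higher for Btrc, with M = 0.30. For Fbxo5 and Btrc the arrays of the 2 genotypes overlapped. None of these differences passed the test adjusted over all probe sets. Values are log2 intensities, M is the mean difference of Ts1Cje minus disomic arrays (3 each), A is the average level over all 6 arrays, and expressed means an A above 5. Of the 27 probe sets 18 were expressed, for 9 of the 10 genes, and 14 of the 18 had an M below 0, against 48.4% of all expressed probe sets. The median M of the 18 was -0.26, against 0.01 over all expressed probe sets. Taking for each of the 9 genes only the brightest probe set, M was below 0 in 7 (46.1% of all expressed genes) and the median was -0.35, against 0.02 for all expressed genes.

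The separation between genotypes was incomplete. On 7 expressed member probe sets, of Skp2, Cul1, Cks1b and Ccnf, all 3 Ts1Cje arrays were below all 3 disomic arrays (5.21% of expressed probe sets), on 1, of Skp1, all were above (5.53%), and on 10 the groups overlapped. An unadjusted p under 0.05 in limma was reached by 5 lower probe sets, 2 of Skp2 and 1 each of Cul1, Cks1b and Ccnf (background 2.88%), and by 1 higher probe set, of Skp1 (background 3.3%). A moderated t below -4, the selection limit of the study, was reached by 2, of Cks1b and Ccnf (background 0.812%), and a moderated t above 4 by none (background 0.965%). After adjustment in limma no member probe set was under 0.05 and each had an adjusted p of 1, where 1 of all 45037 probe sets passed (0.00222%). The Ccnf probe set in these counts, 1443807_x_at, passed A above 5 only through its disomic arrays, since all its Ts1Cje arrays were under 5. Without it 13 of 17 expressed probe sets had an M below 0, 6 were lower without overlap, 4 were lower with an unadjusted p under 0.05 in limma, 1 had a moderated t below -4, and the median M was -0.22. The count below -4 also rested on single arrays: it was 0 without disomic replicate 1, 1 without disomic replicate 3 or without Ts1Cje replicate 2 or 3, and 4 without Ts1Cje replicate 1. The count of 5 lower probe sets was likewise 2 without disomic replicate 1, and 3 without disomic replicate 3 or Ts1Cje replicate 2 or 3. With 3 arrays a genotype an exact permutation test of 1 probe set cannot give a p below 0.1, and the cultures are the only replicates, so that p-values measure the spread between these 6 cultures.

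**Figure D1:**
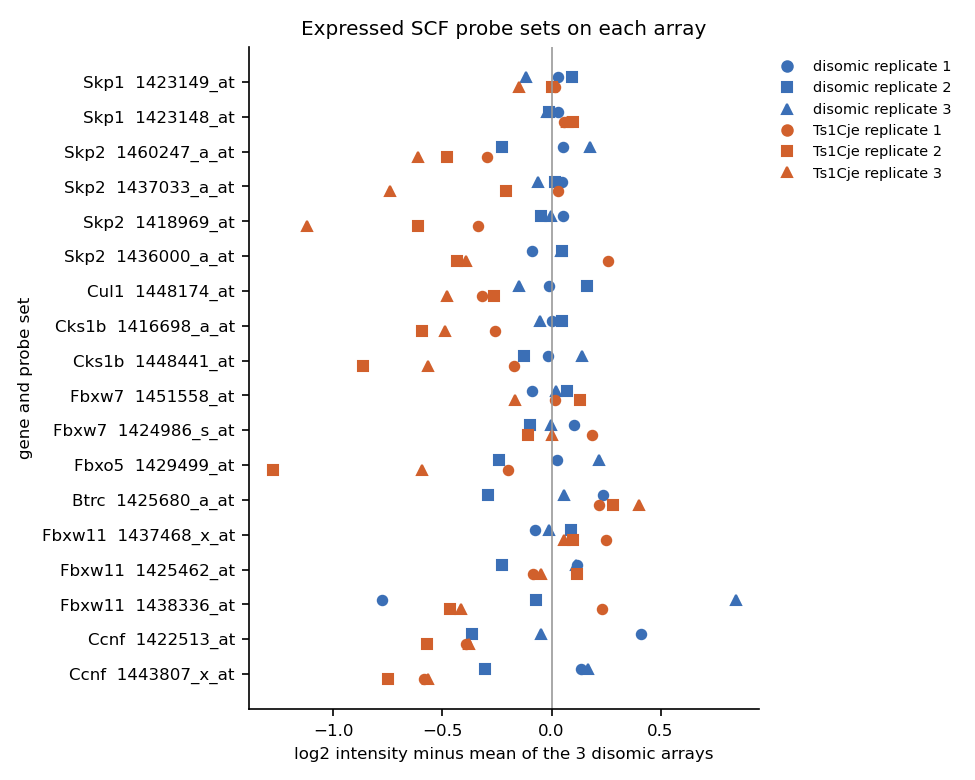
Each of the 18 expressed SCF probe sets is a row, and each point is 1 array, placed by its log2 intensity minus the mean of the 3 disomic arrays, with colour for genotype and shape for replicate. The Ts1Cje points lie to the left of all disomic points for 7 probe sets of Skp2, Cul1, Cks1b and Ccnf, and on both sides of the disomic points for 1451558_at of Fbxw7.

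The core subunits did not move as a group. Skp1, the adaptor common to all these complexes, was measured by 2 bright probe sets. Probe set 1423149_at read 11.92, 11.99 and 11.78 on the disomic arrays and 11.91, 11.90 and 11.75 on the Ts1Cje arrays, overlapping groups, with M = -0.04 and a 95% interval from -0.25 to 0.17. Probe set 1423148_at read 11.53, 11.49 and 11.48 on the disomic arrays and 11.56, 11.60 and 11.57 on the Ts1Cje arrays. Here the Ts1Cje arrays were all higher, by an M of 0.08 ± 0.02 (standard error, n = 3 a genotype), a fold of 1.05, with an unadjusted p = 0.0143 in limma. The difference was the smallest of the 8 without overlap, and the other Skp1 probe set did not show it. In a fit over expressed probe sets only, 1423148_at had a moderated t of 0.68 and an unadjusted p = 0.518 in limma.

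Cul1, the scaffold, was measured by 1448174_at alone, at 11.10, 11.28 and 10.97 on the disomic arrays and 10.80, 10.85 and 10.63 on the Ts1Cje arrays. Every Ts1Cje array was below every disomic array, and the lowest disomic array was 0.12 above the highest Ts1Cje array. M was -0.35 ± 0.11 (standard error), a fold of 0.782, with an unadjusted p = 0.0257 in limma. Rbx1 could not be judged: its only probe set with a single symbol, 1440061_at, stood at 2.33 on 5 arrays and at 2.53 on disomic replicate 3, near the floor of the arrays at 2.23. In bulk RNA, fewer cells that express a gene and less of its RNA per cell cannot be told apart, here and in all that follows.

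Skp2 was measured by 6 probe sets, all with an M below 0, of which 4 were expressed with M from -0.69 to -0.19. The brightest, 1460247_a_at, read 10.52, 10.24 and 10.65 on the disomic arrays and 10.17, 9.99 and 9.85 on the Ts1Cje arrays. Its groups did not overlap, although disomic replicate 2 was within 0.07 of Ts1Cje replicate 1, and M was -0.46 ± 0.15 (standard error), a fold of 0.726, with an unadjusted p = 0.0299 in limma. Probe set 1418969_at read 10.09, 9.99 and 10.03 on the disomic arrays and 9.70, 9.42 and 8.91 on the Ts1Cje arrays. It was the probe set of Skp2 with the lowest M, -0.69 ± 0.22 (standard error), a fold of 0.620, unadjusted p = 0.0323 in limma, again without overlap.

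The remaining expressed Skp2 probe sets overlapped between genotypes. On 1437033_a_at the disomic arrays read 9.92, 9.89 and 9.81 and the Ts1Cje arrays 9.90, 9.67 and 9.13, for M = -0.31 with a 95% interval from -0.90 to 0.29. Without Ts1Cje replicate 3, the lowest, M was -0.09. On 1436000_a_at the disomic arrays read 8.64, 8.78 and 8.78 and the Ts1Cje arrays 8.99, 8.30 and 8.34, so that Ts1Cje replicate 1 was the highest of all 6 arrays. M was -0.19 with an interval from -0.78 to 0.40, -0.41 without that array and -0.07 and -0.09 without Ts1Cje replicates 2 and 3. Both differences were within the spread between cultures. Skp2 therefore differed most on Ts1Cje replicate 3, the lowest Ts1Cje array on 3 of the 4 expressed probe sets, and least on Ts1Cje replicate 1, the highest Ts1Cje array on all 4. The disomic arrays had an SD of 0.05 to 0.21 on these probe sets and the Ts1Cje arrays one of 0.16 to 0.40. The dim probe sets 1425072_at and 1449293_a_at, with A of 4.39 and 3.67, had M of -0.36 and -0.45 with overlapping groups.

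**Figure D2:**
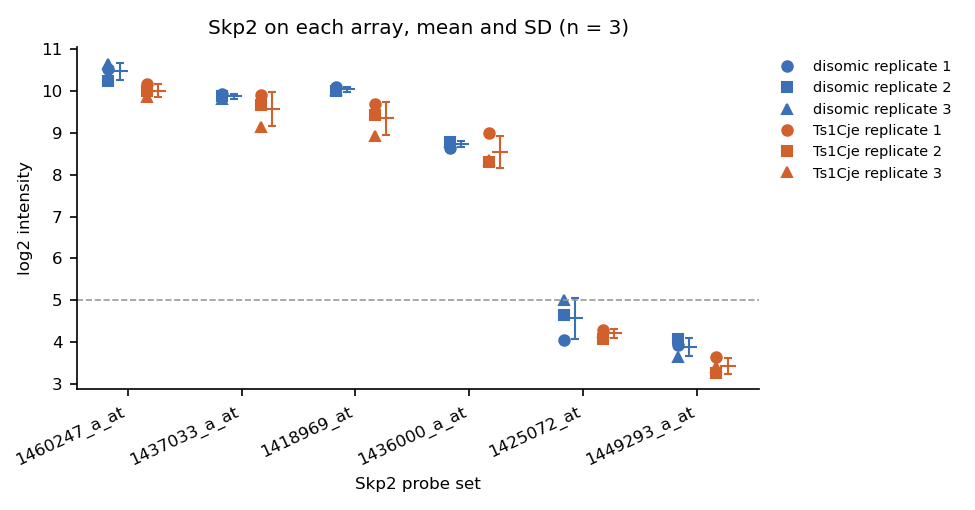
Log2 intensity of the 6 Skp2 probe sets on each array, with colour for genotype and shape for replicate, the mean and SD of 3 arrays beside the points, and a dashed line at 5, the level for expressed probe sets. The genotypes separate on 1460247_a_at and 1418969_at, and Ts1Cje replicate 1 lies with the disomic arrays on 1437033_a_at and above them on 1436000_a_at.

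Cks1b, the small protein that Skp2 needs to bind phosphorylated p27, was lower on both of its probe sets, each without overlap between the genotypes. The bright one, 1416698_a_at, read 12.77, 12.82 and 12.72 on the disomic arrays and 12.51, 12.18 and 12.29 on the Ts1Cje arrays. The 3 disomic arrays lay within 0.10 of each other, and the nearest Ts1Cje array was 0.21 below them. M was -0.45 ± 0.10 (standard error), a fold of 0.734, with a moderated t of -4.50 and an unadjusted p = 0.00900 in limma, the lowest p among the members. The moderated t was -3.51, -3.43 and -3.85 without disomic replicates 1, 2 and 3, -3.43 without Ts1Cje replicate 3 and -3.31 in a fit over expressed probe sets only, while M stayed between -0.54 and -0.37.

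The dimmer Cks1b probe set, 1448441_at, read 7.55, 7.44 and 7.70 on the disomic arrays and 7.39, 6.70 and 6.99 on the Ts1Cje arrays. The groups were close at Ts1Cje replicate 1 and disomic replicate 2, and M was -0.53 ± 0.21 (standard error), unadjusted p = 0.0557 in limma. Cks2, its paralog, which was not a member, gave M of -0.60 and -0.59 on its 2 probe sets, both without overlap.

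Fbxo5, the inhibitor of the anaphase-promoting complex, was measured by 1429499_at, at 8.02, 7.75 and 8.21 on the disomic arrays and 7.80, 6.72 and 7.40 on the Ts1Cje arrays. Its M was -0.69, as low as that of any member, but the standard error was 0.33, the groups overlapped at Ts1Cje replicate 1 and disomic replicate 2, and the unadjusted p was 0.0977 in limma. Without Ts1Cje replicate 2 M was -0.40, and without Ts1Cje replicate 1 it was -0.94. The difference was thus within the spread between cultures.

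Ccnf, the cyclin that founded the F-box family, was lower without overlap on both of its probe sets. On 1422513_at the disomic arrays read 7.59, 6.81 and 7.13 and the Ts1Cje arrays 6.78, 6.60 and 6.80. Disomic replicate 2 was above the highest Ts1Cje array by only 0.01, M was -0.45 ± 0.22 (standard error) with an unadjusted p = 0.111 in limma, and M was -0.24 without disomic replicate 1 and -0.63 without disomic replicate 2. On 1443807_x_at, with A = 5.21, the disomic arrays read 5.67, 5.23 and 5.70 and the Ts1Cje arrays 4.94, 4.78 and 4.96. All Ts1Cje arrays were under the expressed level of 5, which the probe set passed only through the disomic arrays, so that its difference is given as a description. The gap between the groups was wider there, and M was -0.63 ± 0.16 (standard error), a fold of 0.644, with a moderated t of -4.04 and an unadjusted p = 0.0132 in limma. That moderated t no longer passed -4 when any array other than disomic replicate 2 was left out, where it lay between -3.41 and -3.08. The suffix of the probe set marks probes that can also match other transcripts. The brightest probe set of Fbxw11 carries the same suffix, as do those of some listed genes, among them Ccne1, Rrm2 and Cdc20.

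Fbxw7, Btrc and Fbxw11, whose F-box proteins bind substrates through WD40 repeats, did not separate the genotypes on any of their 6 expressed probe sets. Fbxw7 was the closest to no difference, with M = -0.01 and a 95% interval from -0.26 to 0.25 on 1451558_at, and M = 0.03 with an interval from -0.24 to 0.29 on 1424986_s_at. On the first the disomic arrays read 8.87, 9.03 and 8.97 and the Ts1Cje arrays 8.97, 9.08 and 8.79, so that the Ts1Cje arrays held both the highest and the lowest value. A lower level of the size measured for Cul1, -0.35, lies outside both of these intervals. The interval of Cul1 itself, from -0.64 to -0.07, overlaps them, and a difference between the 2 genes was not tested.

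Btrc was expressed on 1425680_a_at, at 7.66, 7.13 and 7.48 on the disomic arrays and 7.64, 7.70 and 7.83 on the Ts1Cje arrays. It was the member with the highest M, 0.30 ± 0.16 (standard error), with an unadjusted p = 0.122 in limma and groups that overlapped at disomic replicate 1, and M was 0.16 without disomic replicate 2, its lowest array. Its other 4 probe sets had A between 2.23 and 3.88, and 1417325_at stood at the floor on every array. Fbxw11, the second β-TrCP gene, had M = 0.13 with an interval from -0.06 to 0.33 on 1437468_x_at, at 13.25, 13.42 and 13.31 on the disomic arrays and 13.58, 13.42 and 13.38 on the Ts1Cje arrays. M was -0.0049 on 1425462_at, with an interval from -0.34 to 0.33, and -0.22 on the dim and widely spread 1438336_at, with an interval from -1.56 to 1.13. The remaining Fbxw11 probe sets, 1447294_at and 1425461_at, had A of 4.44 and 4.30.

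**Figure D3:**
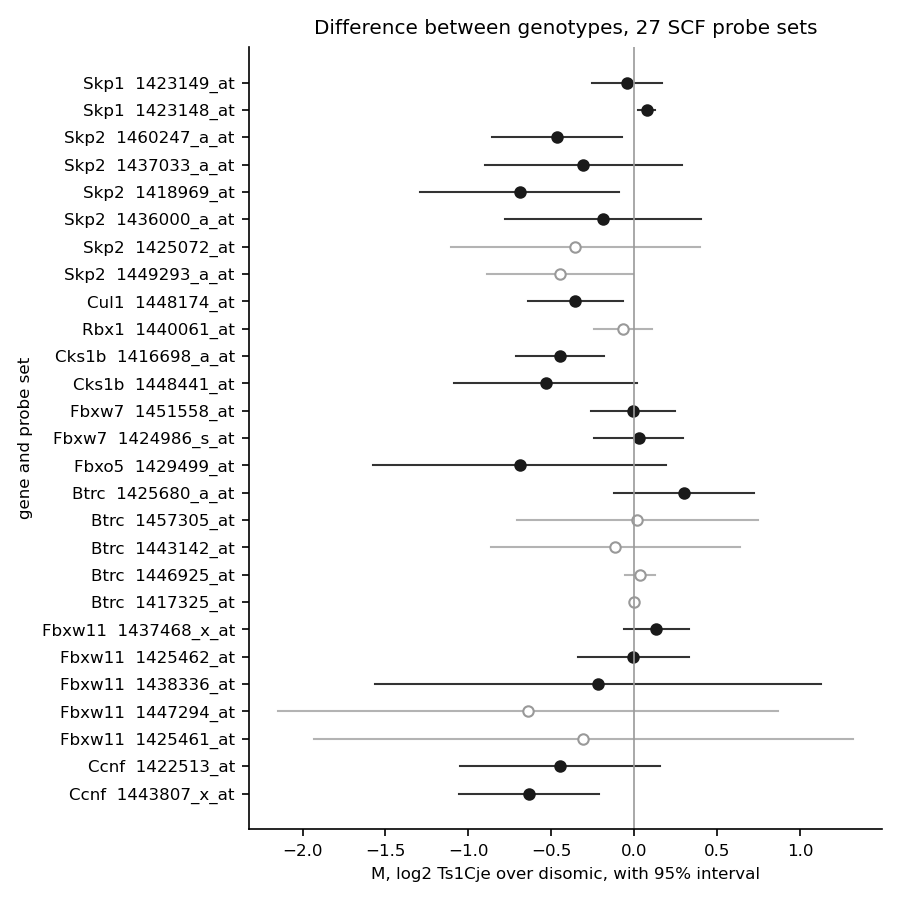
M of each of the 27 SCF probe sets, log2 Ts1Cje over disomic, with its 95% interval from limma. Filled points are expressed probe sets and open grey points those with A of 5 or less. The interval excludes 0 for 6 expressed probe sets, 5 below 0 (2 of Skp2 and 1 each of Cul1, Cks1b and Ccnf) and 1 above (Skp1), and holds 0 for the other 12.

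Grouped by role, the 3 expressed probe sets of the core subunits had a median M of -0.04, the 6 of Skp2 and Cks1b one of -0.45 with all 6 below 0, the 3 of Fbxo5 and Ccnf values of -0.69, -0.45 and -0.63, the last from the Ccnf probe set that was under 5 on all Ts1Cje arrays, and the 6 of Fbxw7, Btrc and Fbxw11 one of 0.01 with 3 below 0. Probe sets lower without overlap, 5.21% of all expressed ones, numbered 4 of 6 for Skp2 and Cks1b and 0 of 6 for the WD40 F-box genes. For Fbxo5 and Ccnf they numbered 2 of 3, both of Ccnf, and include the probe set that passed A above 5 only through its disomic arrays. Of the 3 core probe sets 1 was lower and 1 higher without overlap (background 5.53% for higher). The grouping by role was not among the planned comparisons, and probe sets of the same gene are not independent. Differences between these roles were not tested.

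Proliferation markers were read on the same arrays beside the members. A list of 15 expressed proliferation markers included the replication factors Pcna, Mcm3 and Mcm5 and the mitotic regulators Plk1, Aurkb and Tpx2. M was below 0 for all 15 (46.1% of all expressed genes), and 10 were lower without overlap (5.16%). The median M of the list was -0.59, against 0.02 for all expressed genes, and lay between -0.76 and -0.43 when arrays were left out in turn. The mean deviation of the list from its 6-array mean was 0.42, 0.17 and 0.36 on the disomic arrays and 0.03, -0.57 and -0.42 on the Ts1Cje arrays. The brightest Skp2 probe set deviated by 0.28, 0.0021 and 0.41 on the disomic arrays and by -0.07, -0.25 and -0.38 on the Ts1Cje arrays, and Cks1b by 0.23, 0.27 and 0.17 and by -0.03, -0.37 and -0.26. Ts1Cje replicate 1 was the Ts1Cje array nearest to the disomic arrays for the list, for Skp2, for Cks1b and for Fbxo5. Not so for Cul1, which deviated by -0.14, -0.09 and -0.30 on the Ts1Cje arrays and was nearest on replicate 2, nor for Ccnf, at -0.17, -0.35 and -0.15 and nearest on replicate 3. How far the share of dividing cells enters the values of the members was not tested.

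**Figure D4:**
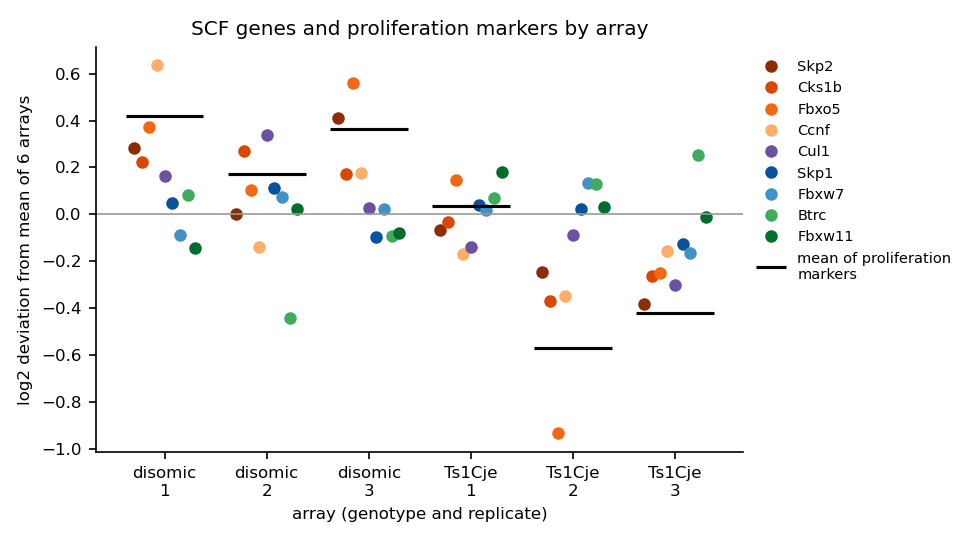
Deviation of each array from the 6-array mean in log2 units, for the brightest expressed probe set of 9 SCF genes (points) and for the mean of 15 proliferation markers (black bars). On Ts1Cje replicates 2 and 3 Skp2, Cks1b, Fbxo5, Ccnf and Cul1 lie below 0 with the bars, and on Ts1Cje replicate 1 the bar lies at 0.03.

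Measures of RNA and labelling also differed between the genotypes. The difference between the 3′ and 5′ control probe sets, which grows as transcripts are shortened, was 1.67 ± 0.15 (SD, n = 3) on the disomic arrays and 2.02 ± 0.21 on the Ts1Cje arrays for actin, and 2.18 ± 0.10 and 2.34 ± 0.09 for Gapdh. The 18S control signal was 11.10 ± 0.78 on the disomic and 12.22 ± 0.22 on the Ts1Cje arrays. For all 3 measures the lowest Ts1Cje array exceeded the highest disomic one, and their part in the values of the members was not tested. Neural stem cell and astrocyte markers were expressed for 8 of 9 genes measured, all but Gfap, and the mean of these 8 was 11.20 to 11.49 on the disomic and 11.32 to 11.41 on the Ts1Cje arrays. Gfap itself read 5.42, 5.72 and 3.61 on the disomic and 2.37, 5.75 and 6.36 on the Ts1Cje arrays. Oligodendrocyte markers were expressed for 4 of 6 and neuronal markers for 1 of 7, Map2, with Dcx, Tubb3, Stmn2, Rbfox3 and Snap25 near the floor, and none of the 8 microglial, 5 endothelial and pericyte and 5 ependymal markers was expressed.

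Over the 6 arrays, the genes whose brightest probe sets were most like that of Skp2 were H2ax, a histone variant phosphorylated at DNA breaks, with a Pearson r of 0.99, Fmr1, an RNA-binding protein, 0.99, Pwwp3a 0.98, Tube1, ε-tubulin of the centriole, 0.98, and Vac14 0.97. Among the members, Cks1b and Fbxo5 had an r of 0.81 with Skp2 and Ccnf 0.76, which placed them at 219, 221 and 324 of 8946 expressed genes. Cul1 had an r of 0.59, Skp1 0.10, Fbxw7 0.09, Btrc -0.40 and Fbxw11 -0.53. These points share their arrays, and the difference between the genotypes enters each r.

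Lists of the machinery around the SCF complexes had medians near 0. Here each gene is represented by its brightest expressed probe set, and all expressed genes give the background: 5.16% had no overlap with Ts1Cje lower and 6.12% with Ts1Cje higher, and 2.87% and 3.73% had an unadjusted p under 0.05 in limma. An M below 0 was found for 46.1% of all expressed genes. Of 12 genes of other cullins, their adaptors and relatives 10 had an M above 0, with a median of 0.11. Cul3, the scaffold of BTB ligases, was higher without overlap at M = 0.24, and Cks2 lower. The Nedd8 list held 21 expressed genes: Nedd8, the modifier that activates cullins, genes for its attachment and removal, and related regulators. Of the 21 genes 13 had an M below 0, with a median of -0.06 and 0 with an unadjusted p under 0.05 in limma. Dcun1d5, which helps to attach Nedd8, and Cops5, the catalytic subunit of the COP9 signalosome that removes it, were lower without overlap at M = -0.63 and M = -0.12, and are named after their values were seen. The 7 expressed ubiquitin-conjugating enzymes had a median of 0.04. Among the other F-box genes 35 of 64 were expressed, with a median M of -0.02 and 19 below 0. Of these, 1, Fbxl17, had an unadjusted p under 0.05 in limma, with M = 0.28 and higher signals on all Ts1Cje arrays. Fbxl16 was higher without overlap at M = 0.24 and Fbxl5 lower at M = -0.18, neither with an unadjusted p under 0.05 in limma, and both are likewise named after their values were seen. The medians of the Nedd8 list, the enzymes and the other F-box genes took either sign when arrays were left out in turn.

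Substrates of the ligases were read by the F-box protein that selects them. SCF ligases act on proteins, so these are levels of the substrates' RNA and not of what the ligases degrade. For Skp2, 4 of 8 expressed substrate genes had an M below 0, the median was -0.0043 and none had an unadjusted p under 0.05 in limma. Cdkn1b, the p27 gene, had M of -0.32 and -0.36 on 2 probe sets with overlapping groups, and Cdkn1a, the p21 gene, 0.06 and 0.16. Ccne1, cyclin E1, had M of 0.03 and 0.04, and Cdt1, a licensing factor of replication, -0.34 and -0.40 on its expressed probe sets, all with overlap. Cdkn1c, the p57 gene, stood near the floor.

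All 9 expressed substrate genes of cyclin F had an M below 0 (46.1% of all expressed genes), with a median of -0.37, which was -0.20 without Ts1Cje replicate 2. Cdc6, which loads the replicative helicase, had M = -0.92 ± 0.30 (standard error), and Nusap1, a spindle protein, -0.58 ± 0.19. On the brightest probe set these 2 had an unadjusted p under 0.05 in limma. Ccp110 and E2f1, named after their values were seen, were lower without overlap at M = -0.37 and M = -0.23. Neither had an unadjusted p under 0.05 in limma. Rrm2, a subunit of ribonucleotide reductase, had M of -0.44, -0.72 and -1.09 on 3 probe sets. The last pair, dimmer than the first, did not overlap and had an unadjusted p of 0.0479 and 0.0329 in limma. Many of these genes are themselves transcribed in cycling cells, as are the proliferation markers above. How far the share of cycling cells enters their values was not tested.

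The median M was -0.13 for 12 substrate genes of Fbxw7 and -0.05 for 12 of the β-TrCP proteins, the latter 0.02 without Ts1Cje replicate 2 and -0.14 without disomic replicate 1. Aurka, a mitotic kinase, was lower without overlap at M = -0.95. Wee1, the kinase that holds Cdk1 inactive, read 9.53, 9.72 and 9.39 on the disomic arrays and 9.14, 8.95 and 8.89 on the Ts1Cje arrays, for M = -0.55 with a moderated t of -4.68. Its second probe set gave M = -0.94, also without overlap. Clspn, a checkpoint adaptor, had M = -0.66 without overlap. In the other direction Per1, named after its value was seen, was higher without overlap at M = 0.37, without an unadjusted p under 0.05 in limma. Of 18 genes of the anaphase-promoting complex, the target of Fbxo5, 12 had an M below 0 and the median was -0.08. Only Cdc23, a subunit, had an unadjusted p under 0.05 in limma, at M = -0.41. The activators of the complex differed in sign, with M of -0.43, -0.60 and -0.34 for Cdc20 and 0.25 for Fzr1. The groups overlapped for Fzr1 and for Cdc20 at -0.43 and -0.34. The Cdc20 probe set at -0.60 was lower without overlap, with an unadjusted p = 0.0780 in limma.

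**Figure D5:**
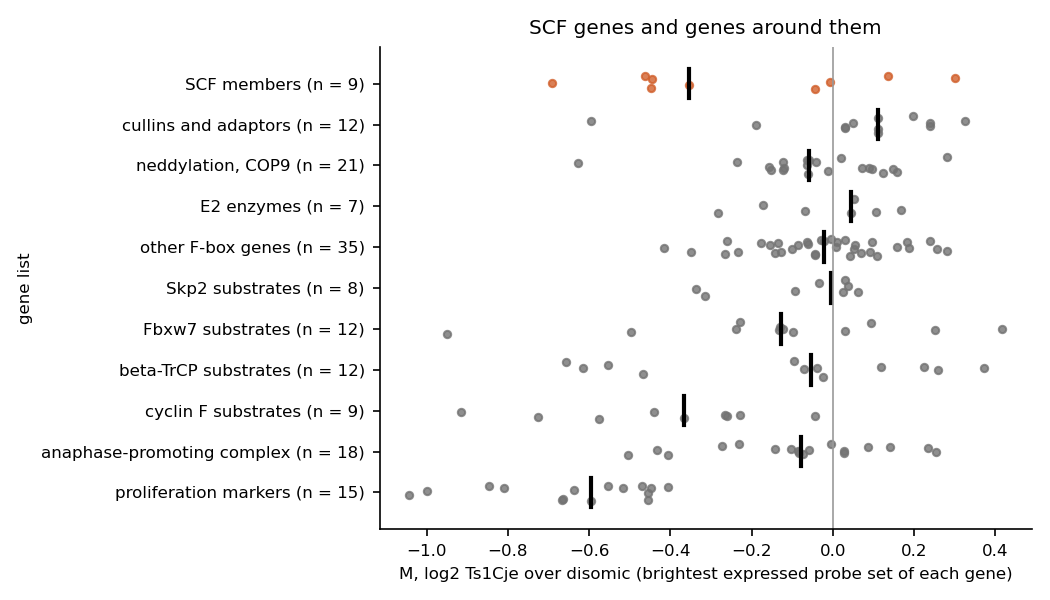
M, log2 Ts1Cje over disomic, of 9 SCF genes (orange) and of the genes of each list around them (grey), each gene by its brightest expressed probe set, with a black bar at the median. The median is -0.35 for the SCF genes, -0.37 for cyclin F substrates and -0.59 for proliferation markers, and between -0.13 and 0.11 for the other lists.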

How the data were processed

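Total RNA of 6 neurosphere cultures was amplified with the Two-Cycle labelling kit and hybridised to Affymetrix Mouse Genome arrays. The authors deposited 1 log2 intensity for each probe set and array, background-corrected, normalised and summarised with GCRMA, whose version is not given in the sources used here. Amplification from the 3′ end makes values depend on transcript length and RNA quality, and the number of arrays limits the precision.

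Genotype was the single term of a linear model fitted to all 45037 probe sets other than controls in limma 3.58.1 under R 4.3.3, with the empirical Bayes moderated t, two-sided, and Benjamini-Hochberg adjustment over all of them. The study names the moderated t and adjusted p-values, and its methods state no model formula for the arrays. The prior degrees of freedom were 0.336. The steps were run on simulated data with changes larger than any M of the members. That run does not show how well differences of the size reported here are found. Probe sets were named where the platform annotation gives a single symbol, and start windows were taken from RefSeq (GRCm38.p6) by symbol.

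The members and gene lists were chosen with earlier results of these data known, and so support nothing by themselves. The text names every member, the listed partners, up to 6 genes of each list with a moderated t past 4 or without overlap and with an unadjusted p under 0.05 in limma, and the 5 genes most like Skp2. Some genes without overlap but without such a p are also named, and are marked as named after their values were seen. Alternatives were a replicate block, leaving out each array, cyclic loess, array weights, other prior variances, and other levels and probe sets per gene. Leaving out 1 Ccnf probe set was chosen after seeing the data. Values set beside each other are differences between arrays for 1 probe set, and levels of different probe sets were not compared. Tables and figures were made with Python 3.11.15, pandas 2.3.3 and matplotlib 3.10.9.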

Additional observations from a re-analysis of the deposited data

How the results depend on the processing

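The sign of M held for 13 of the 18 expressed SCF probe sets under every alternative, and 202 of 216 recomputed values kept their sign. The 14 that changed belong to 5 probe sets with M near 0 or a wide spread. With array weights M was 0.0034 for Fbxw7 1451558_at and 0.067 for Fbxw11 1425462_at. Leaving out single arrays gave M from -0.10 to 0.0083 for Skp1 1423149_at, from -0.075 to 0.073 and from -0.053 to 0.093 for Fbxw7 1451558_at and 1424986_s_at, and from -0.12 to 0.053 and from -0.60 to 0.21 for Fbxw11 1425462_at and 1438336_at. Cyclic loess moved the median M of expressed probe sets by -0.0038 only.

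The number with a moderated t below -4, 2 at first, was 1 with a prior variance following intensity, a robust prior variance, array weights, a level of A above 6 or Ccnf 1443807_x_at left out (chosen after seeing the data), 0 in the fit over probe sets with A above 5, and 3 with the replicate block. The number above 4 was 1 with array weights, Skp1 1423148_at. The number lower with an unadjusted p under 0.05 in limma, 5 at first, was 7 in the fit over probe sets with A above 5 and 3 with the replicate block. Shares over all probe sets are not given for these fits. The single higher probe set with an unadjusted p under 0.05 was lost, leaving 0, with the prior variance following intensity, in the fit over probe sets with A above 5 and with the replicate block. Leaving out single arrays gave 0 to 4 below -4, 0 to 1 above 4, 2 to 7 lower and 0 to 1 higher by unadjusted p, and a median M over the genes from -0.37 to -0.24.

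The design describes pairs of littermates, but replicate numbers were not shown to pair the cultures: the deviations of same-numbered arrays correlated at -0.17, -0.03 and 0.13, and Ts1Cje replicate 1 was closest to disomic replicate 2 at 0.40. With the replicate block M was unchanged and 3 lower and 0 higher probe sets had an unadjusted p under 0.05 in limma, those of Cul1 (0.00526), Ccnf 1443807_x_at (0.0117) and Cks1b 1416698_a_at (0.0368), which are also the 3 with a moderated t below -4. The p of Skp2 1460247_a_at and 1418969_at was then 0.0798 and 0.0614, and that of Skp1 1423148_at 0.0666.

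For the lists, the mean of all expressed probe sets of a gene gave medians of 0.042 for cullins and adaptors and -0.050 for Fbxw7 substrates. Leaving out single arrays gave medians from 0.069 to 0.13 for cullins and adaptors with 2 to 4 genes below 0, from -0.076 to 0.018 for the Nedd8 list, from -0.052 to 0.049 for ubiquitin-conjugating enzymes with 1 to 4 below 0, from -0.071 to 0.047 for other F-box genes and from -0.20 to -0.067 for Fbxw7 substrates, and 4 to 7 Skp2 substrates below 0. The causes were not tested.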
